A study of Mus musculus with 8 samples.

Results

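The GIMAP genes (GTPases of the immunity-associated protein family) were followed in endogenous CD8+ T cells of melanoma-bearing mice. Their members were taken by gene name from the deposited table, which gave 8 genes (*Gimap1*, *Gimap3*, *Gimap4*, *Gimap5*, *Gimap6*, *Gimap7*, *Gimap8* and *Gimap9*) of 47493. All 8 passed the filter on low levels, a mean over the libraries of 1 FPKM or more, as did 12166 genes in all. The label was also borne out by position, since the 8 genes lay side by side on chromosome 6.

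The libraries came from 4 female C57BL/6 mice that were 6 to 8 weeks old at the start. Every mouse received 200000 B16F10 melanoma cells in the skin on day 0, cyclophosphamide at 300 mg/kg on day 3, 2000000 primed Thy1.1+ Pmel-1 cells on day 5, IL-2 at 10000 IU for 3 days and an anti-CD4 antibody at 200 μg weekly for 3 weeks from day 10. Pmel-1 cells are CD8+ T cells with a transgenic receptor for a melanoma antigen, and anti-CD4 removes helper T cells. On day 25 the Thy1.1-negative CD8+ cells of lymph nodes and spleen were split on a magnetic column into the IL-18Rαhi-enriched fraction (n = 4) and the flow-through that the column did not hold (n = 4), so both fractions carried the whole treatment and no untreated mouse entered. The comparison asks how the transcriptome of cells with much of the IL-18 receptor α chain differs from that of the residual CD8+ cells of the same mouse.

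GIMAP proteins are GTP-binding proteins of lymphocytes with an AIG1 domain, and several sit on membranes of the endoplasmic reticulum, mitochondria, Golgi or lysosomes. They are known for keeping resting T cells alive: loss of *Gimap5* or *Gimap1* leaves mice with few peripheral T cells. Their transcripts are usually abundant in resting lymphocytes and scarce in cells of other lineages.

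The cluster covered chr6:48647234-48770851 (GRCm38, GENCODE M21 annotation), a stretch of 123.6 kb. Along it the order was *Gimap8*, *Gimap9*, *Gimap4*, *Gimap6*, *Gimap7*, *Gimap1*, *Gimap5* and *Gimap3*, with 6 genes on the plus strand and 2, *Gimap6* and *Gimap3*, on the minus strand. Every gene identifier in the table matched the annotation. *Gimap3* and *Gimap5* are close copies, with 90.7% identity over 895 aligned coding bases, whereas no other pair shared a run of 100 bases. Their longest identical stretch of coding sequence is printed because fragments that fall within it cannot be assigned to either gene by sequence. It has 140 bases and lies in 1 of 2 coding exons of each gene, at chr6:48765681-48765820 (minus strand) in *Gimap3* and chr6:48752684-48752823 (plus strand) in *Gimap5*.

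Gimap3 and Gimap5 shared coding stretch: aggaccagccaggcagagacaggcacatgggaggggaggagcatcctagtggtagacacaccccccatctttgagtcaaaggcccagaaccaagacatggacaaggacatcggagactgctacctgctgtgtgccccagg

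Of all 100-base windows in the annotated transcripts, 1.65% of those of *Gimap3* and 0.966% of those of *Gimap5* occurred in another member, and none did for the other 6 genes. Identical windows thus made up only a small part of *Gimap3* and *Gimap5*. Windows that differ by a few bases were not counted, so how uncertain the split of FPKM between them was is not known. The 2 promoter windows printed next belong to the members that differed most in their change between the fractions, *Gimap1* and *Gimap6*. Both are RefSeq windows of 300 bases (GRCm38.p6), from 250 bases before the transcript start to 50 after it, written along the gene's own strand. Capitals mark the only match in each window to the motifs searched.

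Gimap1 promoter, chr6:48738797-48739096, plus strand: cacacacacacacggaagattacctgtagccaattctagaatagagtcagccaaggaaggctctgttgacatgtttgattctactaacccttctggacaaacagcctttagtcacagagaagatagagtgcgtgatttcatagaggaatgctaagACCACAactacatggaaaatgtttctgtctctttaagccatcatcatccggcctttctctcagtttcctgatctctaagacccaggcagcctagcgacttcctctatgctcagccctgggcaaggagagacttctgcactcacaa

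Gimap6 promoter, chr6:48708195-48708494, minus strand: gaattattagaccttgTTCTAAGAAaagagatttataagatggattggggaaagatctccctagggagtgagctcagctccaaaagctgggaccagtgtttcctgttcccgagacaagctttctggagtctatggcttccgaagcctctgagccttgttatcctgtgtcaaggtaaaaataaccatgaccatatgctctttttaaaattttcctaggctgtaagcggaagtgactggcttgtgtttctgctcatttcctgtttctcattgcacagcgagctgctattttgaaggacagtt

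The motifs were searched on both strands in the 9 RefSeq windows of the 8 genes (*Gimap8* had more than 1 start) and in all 32851 mouse windows. The RUNX motif TGTGGT, read on the opposite strand in *Gimap1*, was in 3 of 9 GIMAP windows and in 16.8% of all windows. The STAT motif TTCNNNGAA was in 4 of 9 and in 8.30% of all. For the others the counts were 2 of 9 against 16.003% for CTTTGA (TCF1 and LEF1), 1 of 9 against 3.65% for GTAAACA (FOXO), 2 of 9 against 35.7% for GGGCGG (the GC box) and 0 of 9 against 14.9% for CCGGAA (ETS). These counts describe letters in a window, and no binding was measured.

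The make-up of the libraries bears on every value that follows. Summed over all genes, the libraries held 656715 to 711678 FPKM, and 11706 to 12288 genes reached 1 FPKM. Selection was visible in *Il18r1*, the gene of the selected receptor, at 30.6 ± 6.96 FPKM in flow-through and 110.8 ± 3.87 in enriched libraries (SD, n = 4 each). The 8 CD8 T-cell markers (*Cd3d*, *Cd3e*, *Cd3g*, *Cd247*, *Cd8a*, *Cd8b1*, *Lck*, *Zap70*) were all present, but their sum was 1280 FPKM in flow-through library 1 against 2048 to 2427 in the other flow-through libraries and 2403 to 2578 in the enriched ones. The summed level of 8 erythroid markers was 824 to 2394 FPKM across flow-through libraries, highest in library 1, and 177 to 1047 across enriched ones. For 7 myeloid markers the sums were 470 to 2496 and 700 to 2865, for 7 B-cell markers 20.9 to 57.3 and 26.4 to 66.6 with the means of *Pax5* and *Fcer2a* over the 8 libraries under 1 FPKM, and for 5 NK markers 12.9 to 24.2 and 35.1 to 83.5. For 3 CD4 T-cell markers the sums were 9.51 to 16.6 and 27.2 to 53.7, and for 3 measured gamma-delta T-cell markers 24.8 to 58.2 and 37.5 to 73.3. By the limma fit, in which 14.1% of all genes tested were higher and 13.7% lower, 3 of 8 erythroid markers were lower in the enriched fraction. Higher in it were 3 of 7 myeloid markers (*Lyz2*, *Itgam* and *Adgre1*), 4 of 5 NK, 3 of 3 CD4 T-cell and 1 of 3 gamma-delta T-cell markers. Of the 5 B-cell markers tested none was called in that fit, and none had an unadjusted p under 0.05. With the mouse as a block 5 myeloid markers were higher and 1 lower, 6 erythroid markers were lower, and 2 gamma-delta T-cell markers were higher. Of the B-cell markers 1 was then higher (*Cd79b*, limma adjusted p = 0.0499) and 1 lower (*Cr2*, adjusted p = 0.0217). In the fit with the block 22.2% of all genes were higher and 22.7% lower. The study counts the NK markers *Ncr1* and *Klrb1c* among genes raised in the IL-18Rαhi-enriched CD8+ T cells. Mean FPKM in flow-through and enriched libraries was 9.58 and 23.6 for *Zbtb7b*, 2.62 and 11.6 for *Foxp3*, and 0.66 and 3.93 for *Cd4*. A marker may thus come from the CD8+ T cells or from other cells, and which was not tested. Nor was the part of other cells in the GIMAP values tested. In such bulk libraries fewer T cells and less RNA per T cell cannot be told apart.

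As a group the GIMAP transcripts were abundant, and across the flow-through they were high and low in the same libraries as the T-cell markers. Their summed level was 550.8, 1030, 905 and 1072 FPKM in flow-through libraries 1 to 4 and 878, 890, 894 and 940 FPKM in enriched libraries 1 to 4. Flow-through library 1 held the lowest sum, and the enriched libraries lay within the range of the flow-through ones. Divided by the sum of the T-cell markers in the same library, the GIMAP sum was 43.0%, 43.6%, 44.2% and 44.2% in flow-through libraries 1 to 4 and 34.1%, 37.0%, 36.3% and 39.1% in enriched libraries 1 to 4. Across the enriched libraries the sums did not run in parallel, since library 1 had the highest marker sum and the lowest GIMAP sum and library 4 the reverse. On the ratio scale flow-through library 1 no longer stood apart and the fractions did not overlap. After scaling by the geometric mean of the same markers, 29.5% of all genes were lower without overlap. The median log2 difference of all genes was then -0.33. No p-value is given for the GIMAP sum, which weights the abundant members most.

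**Figure D1:**
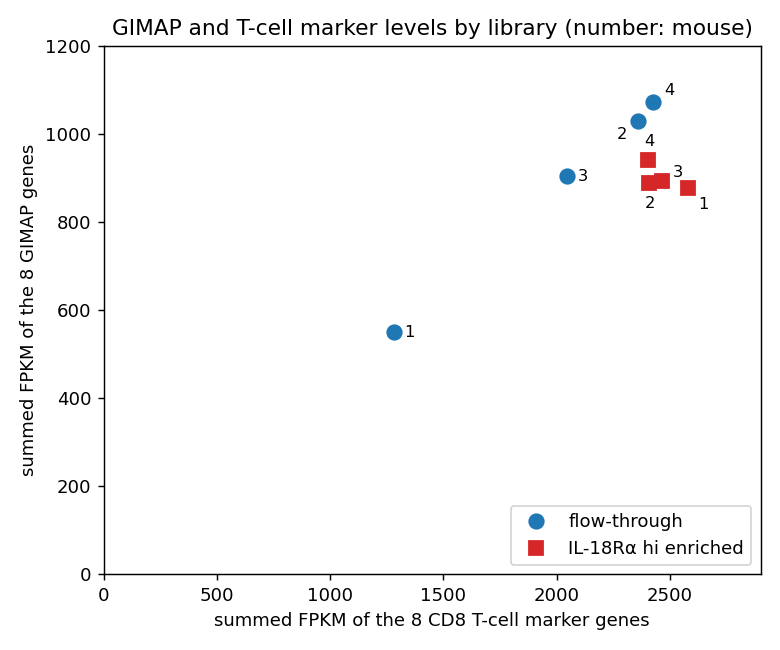
Summed FPKM of the 8 GIMAP genes (vertical axis) against summed FPKM of the 8 CD8 T-cell markers (horizontal axis), 1 point per library, with the mouse number beside it. Flow-through library 1 lies far below the others on both axes (551 and 1280 FPKM), and the 4 enriched libraries lie together at 878 to 940 FPKM.

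Between the fractions only *Gimap1* passed the test. With limma on log2(FPKM + 1), 1 of 8 members was higher in the enriched fraction and none was lower at an adjusted p under 0.05, where 14.1% of all genes tested were higher and 13.7% lower. The same gene was the only member with an unadjusted p under 0.05. With the mouse as a term of the model the count was again 1 higher and none lower, where 22.2% of all genes were higher and 22.7% lower, and *Gimap1* had an adjusted p of 0.0281. Without mouse 1 it was 1 higher and 1 lower (*Gimap6*), where the shares of all genes were 14.8% and 12.7%. The median difference of the members was 0.09 on the log2 scale against -0.02 over all genes tested. Its sign depended on the setting. Without mouse 1 it was -0.10 against -0.02, and with the T-cell scaling described below it was -0.25 against -0.33. The members are taken in turn from the survival factors to the less studied genes.

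*Gimap1* (chr6:48739054-48743795, plus strand) encodes a GTPase that mature T and B cells need to persist. Its level was 50.4, 87.2, 76.0 and 89.6 FPKM in flow-through libraries 1 to 4 and 110.9, 104.3, 104.2 and 107.3 FPKM in the enriched libraries. Every enriched library was above every flow-through library, a pattern that 16.4% of all genes showed in this direction and 15.9% in the other. The means were 75.8 ± 17.95 and 106.7 ± 3.16 FPKM (SD, n = 4), a ratio of 1.41, and the log2 difference was 0.52 (SE 0.17, 95% interval 0.14 to 0.90, limma adjusted p = 0.0496). It was higher in the enriched fraction in 4 of 4 mice, by 1.14, 0.26, 0.45 and 0.26 on the log2 scale in mice 1 to 4. The call lay at the threshold. Without flow-through library 1 the difference was 0.34 (adjusted p = 0.0131), without both libraries of mouse 1 it was 0.32 (adjusted p = 0.0271), and without flow-through library 3 or any single enriched library the adjusted p was over 0.05, up to 0.107.

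*Gimap1os* (chr6:48738346-48741444, minus strand), an antisense transcript that is no member, overlaps *Gimap1* by 2391 bases. It was listed at 2.98, 5.59, 6.197 and 4.87 FPKM in flow-through libraries 1 to 4 and at 7.61, 7.72, 7.05 and 6.80 FPKM in the enriched fraction, so that the fractions did not overlap. Its log2 difference of 0.52 was as large as that of *Gimap1* (limma adjusted p = 0.0559, or 0.0339 with the mouse as a block). The quantification is not stated to use strand, and without it the reads of both genes cannot be told apart where they overlap. At 6.10 FPKM on average against 91.3 FPKM for *Gimap1*, the antisense row was the smaller.

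*Gimap5* (chr6:48746197-48754210, plus strand), the lysosomal and survival-associated member whose loss causes lymphopenia, was similar in both fractions. It was at 43.9, 75.3, 71.1 and 85.6 FPKM in flow-through libraries 1 to 4 and at 66.7, 74.9, 77.8 and 73.5 FPKM in the enriched fraction. The fractions overlapped, and the log2 difference was 0.12 (95% interval -0.30 to 0.55, limma adjusted p = 0.645). Its close copy *Gimap3* (chr6:48764464-48770851, minus strand), known from mouse genetics for its part in mitochondrial DNA segregation in leukocytes, was listed at 135.2, 249.2, 207.6 and 259.2 FPKM in flow-through libraries 1 to 4 and at 184.2, 191.0, 184.7 and 199.6 FPKM in the enriched fraction. In mice 2, 3 and 4 the enriched library was the lower, and in mouse 1 the higher. The log2 difference of *Gimap3* was -0.12 (95% interval -0.55 to 0.31, adjusted p = 0.658), and without flow-through library 1 it was -0.32 (adjusted p = 0.0300). Without both libraries of mouse 1 it was -0.31 and was not called (adjusted p = 0.0543).

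*Gimap4* (chr6:48684549-48692060, plus strand), which has been linked to the execution of T-cell death, was the most abundant member of the enriched fraction. It was at 127.9, 250.9, 217.2 and 246.0 FPKM in flow-through libraries 1 to 4 and at 254.4, 233.4, 238.2 and 252.6 FPKM in the enriched fraction. The fractions overlapped also when library 1 was set aside, and the log2 difference of 0.26 (95% interval -0.19 to 0.72) did not pass (limma adjusted p = 0.349). Without both libraries of mouse 1 the difference was 0.02.

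*Gimap6* (chr6:48701582-48708225, minus strand), whose protein binds the autophagy protein GABARAPL2, had the most negative difference of the 8. Its level was 114.0, 216.0, 192.9 and 232.5 FPKM in flow-through libraries 1 to 4 and 138.6, 157.7, 152.2 and 168.6 FPKM in the enriched fraction. All enriched libraries were below flow-through libraries 2, 3 and 4 and above library 1. The log2 difference was -0.24 (SE 0.21, 95% interval -0.72 to 0.23, limma adjusted p = 0.404). It was decided by 1 library, because without flow-through library 1 the difference was -0.47 (adjusted p = 0.00911), and without both libraries of mouse 1 it was -0.42 (adjusted p = 0.0151).

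*Gimap7* (chr6:48718621-48724636, plus strand), a GTPase that dimerises to hydrolyse GTP, was the least abundant member. It was at 21.9, 41.0, 35.6 and 40.6 FPKM in flow-through libraries 1 to 4 and at 31.3, 29.0, 35.2 and 30.1 FPKM in the enriched fraction, and the log2 difference was -0.11 (95% interval -0.54 to 0.33, limma adjusted p = 0.701). Without flow-through library 1 it was -0.31 (adjusted p = 0.0364), and without both libraries of mouse 1 it was -0.31 and not called (adjusted p = 0.0601). *Gimap8* (chr6:48647234-48660875, plus strand), the longest family member, with several GTP-binding domains in a row, was at 28.2, 57.8, 52.4 and 58.2 FPKM in flow-through libraries and at 44.3, 48.9, 49.5 and 53.8 FPKM in enriched ones. *Gimap9* (chr6:48676129-48679114, plus strand), about which least is known, was at 29.3, 52.3, 51.6 and 60.6 FPKM and at 47.9, 50.6, 51.9 and 55.1 FPKM. For both genes the fractions overlapped, with log2 differences of 0.05 (95% interval -0.44 to 0.55, adjusted p = 0.878) for *Gimap8* and 0.13 (-0.33 to 0.59, adjusted p = 0.653) for *Gimap9*.

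**Figure D2:**
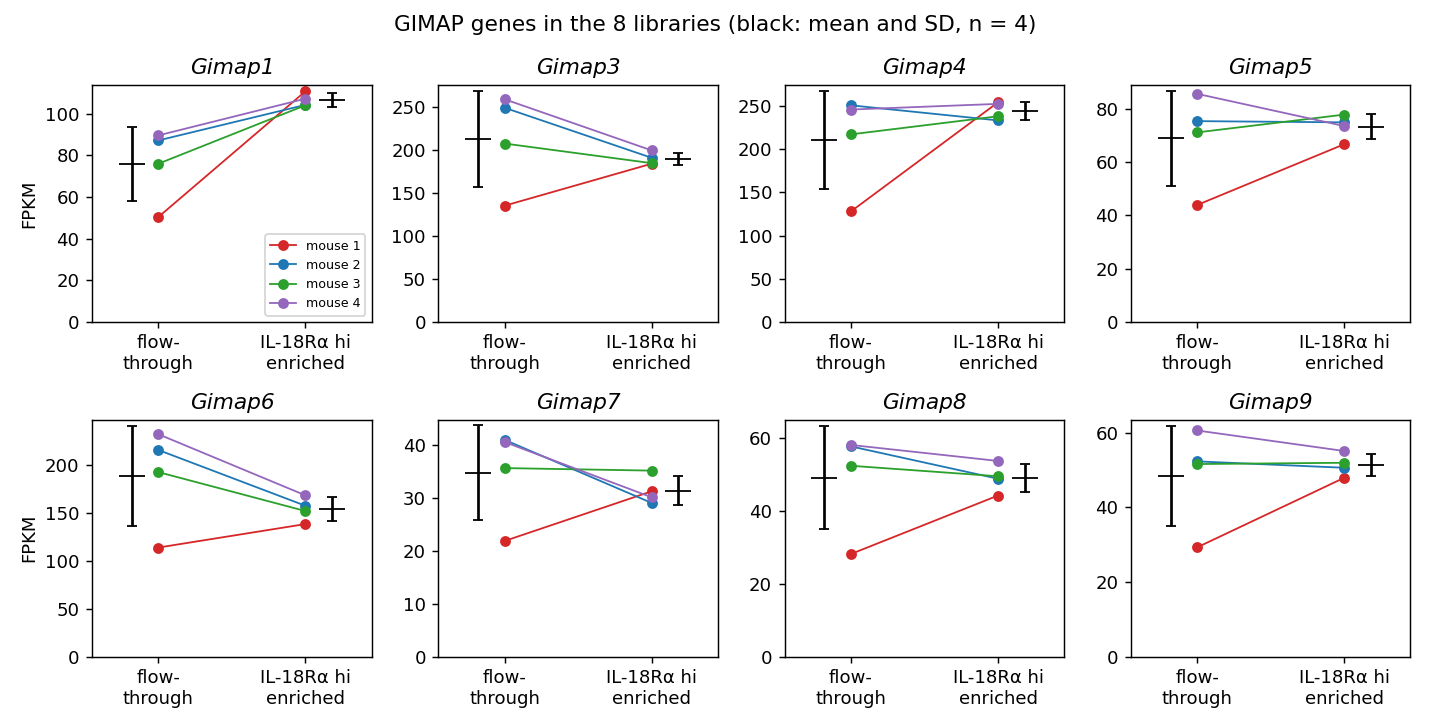
FPKM of each GIMAP gene in the 2 fractions, with a line for each mouse and the mean and SD (n = 4) in black. The line of mouse 1 starts lowest in every panel, the enriched libraries lie close together, and only for *Gimap1* are all 4 enriched libraries above all flow-through ones.

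The spread of the flow-through came mostly from library 1. There every member stood at 50.2% (*Gimap8*) to 59.8% (*Gimap1*) of its mean in the other flow-through libraries. The coefficient of variation was 23.7% to 28.9% across the flow-through, 5.69% to 11.5% without library 1, and 2.96% to 8.51% across the enriched fraction. The T-cell markers were low in the same library, where their scaling factor, the geometric mean of the 8 markers relative to all libraries, was 0.579 against 0.924 to 1.09 in the other flow-through libraries and 1.10 to 1.17 in the enriched ones. The part of T-cell content in these values was not tested.

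After each library was divided by that factor, the replicates of the flow-through drew together and most members were lower in the enriched fraction. *Gimap1* was at 83.5 ± 2.40 and 94.6 ± 1.42 in scaled FPKM, still higher without overlap, with a log2 difference of 0.18 that did not pass (limma adjusted p = 0.322). *Gimap6* was at 205.7 ± 6.69 and 137.0 ± 13.8, a difference of -0.59 that passed (adjusted p = 0.0293, or 0.0452 with the mouse as a block). *Gimap3* was at 232.8 ± 5.50 and 168.5 ± 9.39, a difference of -0.47 that passed without the block (adjusted p = 0.0471) and not with it (0.103). In all, 6 members (*Gimap3*, *Gimap5*, *Gimap6*, *Gimap7*, *Gimap8*, *Gimap9*) were lower without overlap, where 29.5% of all genes were, and *Gimap1* was higher without overlap, where 6.3% of all genes were. *Gimap4* overlapped, at 229.6 ± 8.12 and 216.8 ± 6.67. This scaling lowered the median of all genes to -0.33 and left 4.46% of genes called higher and 8.92% lower (5.23% and 18.7% with the block), so that relative to that median *Gimap1*, *Gimap4*, *Gimap5*, *Gimap8* and *Gimap9* lay above and *Gimap3*, *Gimap6* and *Gimap7* below. The markers that set the scale are genes of the T-cell receptor complex, CD8 and their kinases. All of them had positive differences before scaling, from 0.11 (*Cd3d*) to 0.64 (*Zap70*), with a list median of 0.38. Of the 8, 1, *Zap70* (named after its values were seen), was itself called higher in the enriched fraction.

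**Figure D3:**
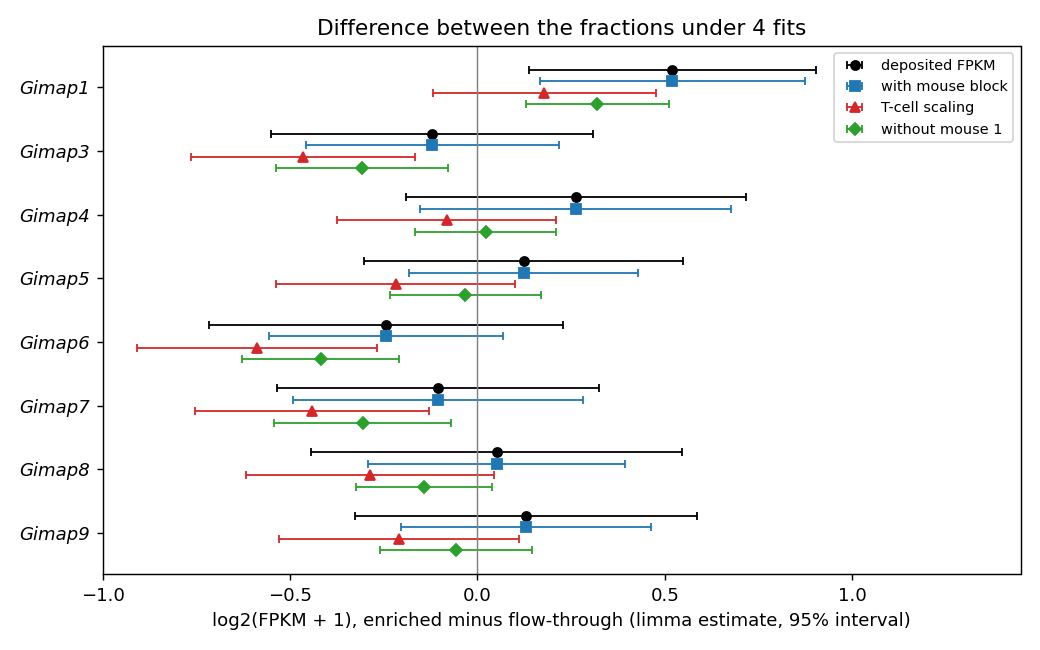
Difference between the fractions in log2(FPKM + 1) for each GIMAP gene, as the limma estimate with its 95% interval, under 4 fits. *Gimap1* lies to the right of 0 in all 4, *Gimap3*, *Gimap6* and *Gimap7* to the left in all 4, and the intervals are narrowest without mouse 1.

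Ratios of 2 members within a library do not depend on how a library is scaled, and they showed that the members did not change alike. Over the 28 pairs, 17 had log2 ratios that did not overlap between the fractions, which is 60.7% of the GIMAP pairs against 33.2% of all pairs of genes above the filter. Each of these 17 reached the smallest p that 4 libraries against 4 allow (exact two-sided permutation test, p = 0.0286, adjusted p = 0.0471 over the 28 pairs). Because the 17 tied at that p, their adjusted p was set by how many of the 28 pairs tied, and they passed together. The pairs also share genes, so the 17 adjusted values are not separate pieces of evidence. The 2 shares are not like for like. The 33.2% includes genes near the filter, whereas the members were abundant. With each fraction's mean subtracted, the members also correlated with one another at 0.91 to 0.99. No share was computed for pairs of genes of similar level and correlation. In 20 pairs the ratio moved the same way in 4 of 4 mice. The share of all pairs of genes that did so was not computed, so this count cannot be judged against it. These permutations set the mouse numbers aside. An exact test that flips signs within mouse pairs cannot reach the threshold of 0.05 with 4 mice, so no ratio could pass it.

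All 7 pairs with *Gimap1* were among the 17, with *Gimap1* the gene that gained. The largest change was that of *Gimap1* to *Gimap6*, whose log2 ratio was -1.18, -1.31, -1.34 and -1.38 in flow-through libraries 1 to 4 and -0.32, -0.60, -0.55 and -0.65 in enriched libraries 1 to 4. The mean moved from -1.30 ± 0.09 to -0.53 ± 0.14 (SD, n = 4), a difference of 0.77 or 1.71-fold. Against *Gimap3* the gain of *Gimap1* was 0.65, against *Gimap7* 0.63, against *Gimap8* 0.47, against *Gimap5* 0.40, against *Gimap9* 0.39 and against *Gimap4* 0.26.

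*Gimap4* came next. Its log2 ratio to *Gimap6* was 0.17, 0.22, 0.17 and 0.08 in flow-through libraries 1 to 4 and 0.88, 0.57, 0.65 and 0.58 in enriched libraries 1 to 4, a difference of 0.51 or 1.42-fold. It also gained on *Gimap3* by 0.39, on *Gimap7* by 0.37 and on *Gimap8* by 0.21, each without overlap. At the other end *Gimap6*, the member that binds an autophagy protein, lost against 5 members without overlap. Its differences from *Gimap3* (0.12 in favour of *Gimap3*, exact permutation p = 0.0571) and *Gimap7* (0.14 in favour of *Gimap7*, exact permutation p = 0.343) did not pass.

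For other pairs the change was small beside the spread of the libraries. The log2 ratio of *Gimap5* to *Gimap9* was 0.52 ± 0.05 in flow-through and 0.51 ± 0.08 in enriched libraries (exact permutation p = 0.857). That of *Gimap3* to *Gimap7* was 2.61 ± 0.06 and 2.60 ± 0.16 (exact permutation p = 0.886). For the near-copies *Gimap3* and *Gimap5* the ratio did move, from 1.62 ± 0.08 to 1.38 ± 0.10 without overlap. Its adjusted permutation p of 0.0471 was the value shared by all pairs without overlap. The part of read assignment between these near-copies in that change was not tested.

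**Figure D4:**
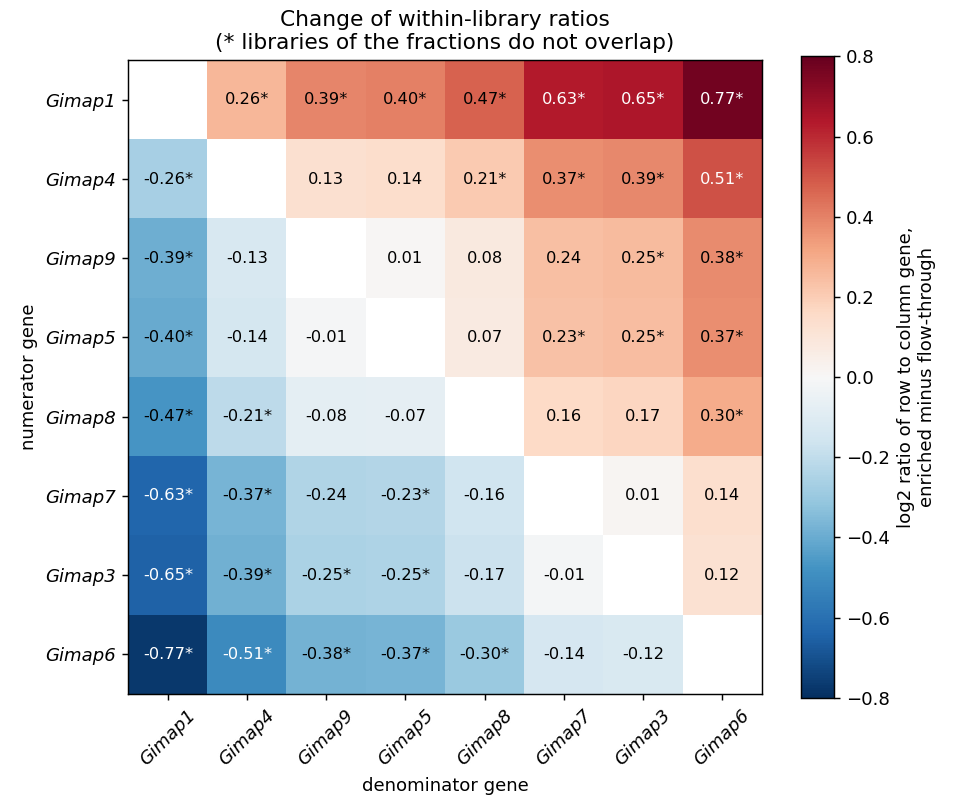
Change of the within-library log2 ratio of the row gene to the column gene, enriched minus flow-through, with genes ordered from the largest gain to the largest loss. An asterisk marks the 17 pairs whose ratios do not overlap between the fractions, which fill the row of *Gimap1* and most of that of *Gimap6*.

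The changes in ratio moved the make-up of the GIMAP message. As a share of the summed GIMAP FPKM, a scale per transcript length, *Gimap1* took 8.60% ± 0.37 of it in flow-through and 11.9% ± 0.53 in enriched libraries, and *Gimap4* took 23.6% ± 0.66 and 27.2% ± 1.22. *Gimap6* took 21.2% ± 0.43 and 17.1% ± 0.97, and *Gimap3* 24.0% ± 0.70 and 21.1% ± 0.34 (SD, n = 4). The shares of *Gimap5*, *Gimap7*, *Gimap8* and *Gimap9* differed between the fractions by less than a percentage point. In the flow-through the order of levels was *Gimap3* and *Gimap4*, whose order held in 2 of 4 libraries, then *Gimap6*, *Gimap1* and *Gimap5*, then *Gimap8* and *Gimap9*, again in that order in 2 of 4, and last *Gimap7*. In the enriched fraction it was *Gimap4*, *Gimap3*, *Gimap6*, *Gimap1*, *Gimap5*, *Gimap9*, *Gimap8* and *Gimap7*, with each step in 4 of 4 libraries. From the highest to the lowest member the range was 6.12-fold for the flow-through means and 7.79-fold for the enriched means.

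Along the chromosome members with positive and negative differences were interleaved, and no test of position was run. Among the members *Gimap1*, the highest, stood between *Gimap7* at -0.11 and *Gimap5* at 0.12, and *Gimap6*, the lowest, between *Gimap4* and *Gimap7*. The antisense *Gimap1os*, which overlaps *Gimap1*, had a like difference of 0.52. Of 7 neighbouring genes outside the cluster, 6 passed the filter and 1 was called higher, where 14.1% of all genes tested were. That was *Tmem176a*, a membrane channel gene, with a log2 difference of 1.28 (limma adjusted p = 0.0342). Its partner *Tmem176b* had a difference of 1.08 (adjusted p = 0.0520, called with the mouse as a block), and *Zfp775* one of 0.20 (adjusted p = 0.270). *Tmem176a* and *Tmem176b* are also expressed in myeloid cells, of whose markers 3 of 7 were higher in the same fit, and the part of those cells in this difference was not tested.

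**Figure D5:**
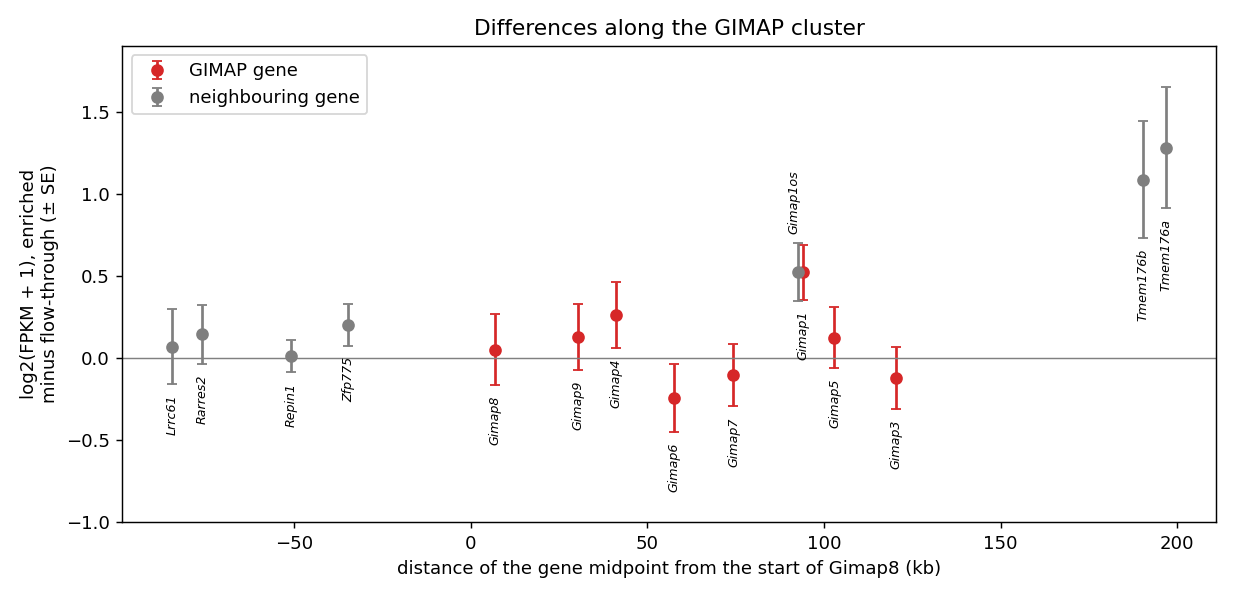
Difference between the fractions in log2(FPKM + 1) with its SE from the limma fit, plotted at the gene's midpoint in kb from the start of *Gimap8*. GIMAP genes in red lie between -0.24 and 0.52, with high and low members interleaved, and *Tmem176a* and *Tmem176b* lie highest.

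Genes linked to the family by function were read from the same fit, in which 14.1% of all genes tested were higher and 13.7% lower. Of 4 measured genes on a list of autophagy and lysosome partners, 3 were higher and none lower in the enriched fraction. The same number had an unadjusted p under 0.05. They were *Gabarapl2*, the partner of *Gimap6* (log2 difference 0.58, limma adjusted p = 0.00324), *Gsk3b* (0.28, adjusted p = 0.0184) and *Gabarap* (0.24, adjusted p = 0.0445), and none was called after the T-cell scaling. The remaining gene, *Lamp1*, had a difference of -0.14 (limma adjusted p = 0.383) and was named after its values were seen. *Gabarapl2* was at 48.9 ± 5.34 and 73.4 ± 2.67 FPKM, so that the partner was higher while *Gimap6* itself was not called.

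Among 10 genes of lymphocyte survival, 2 were higher and none lower, where 14.1% of all genes tested were higher and 13.7% lower. Of the 10, 4 had an unadjusted p under 0.05, and the list median was 0.06. *Bcl2a1d*, an anti-apoptotic gene of activated cells, rose by 1.64 (limma adjusted p = 0.000463), and *Bcl2l1*, which encodes BCL-XL, rose by 0.96 (adjusted p = 0.000363). *Bcl2*, the survival factor of resting lymphocytes, had a difference of -0.72 (adjusted p = 0.0683). Blocking on the mouse, 2 survival genes were called lower, *Bcl2* (adjusted p = 0.00651) and the pro-apoptotic *Bcl2l11* (adjusted p = 0.0370), the second named after its values were seen. With that block 22.7% of all genes were lower. *Il7r*, the IL-7 receptor α chain, had a difference of 0.17 (adjusted p = 0.603).

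The GIMAP members were also set beside genes of naive and resting T cells, since both are usually high in resting cells. Of 12 such genes, 5 were lower and none higher, where 13.7% of all genes tested were lower and 14.1% higher. Of the 12, 7 had an unadjusted p under 0.05, and the list median was -0.65 against 0.09 for the GIMAP members. Without mouse 1 the medians were -0.74 and -0.10. *Ccr7*, the lymph node homing receptor, fell by 1.27 (limma adjusted p = 0.00402), *Dapl1* fell by 1.19 (adjusted p = 0.00203), and *Bach2*, a repressor of effector genes, fell by 1.11 (adjusted p = 0.0439). The other 2, named after their values were seen, were *Satb1* (-0.90, adjusted p = 0.00952) and *Lef1* (-0.75, adjusted p = 0.0276). With the mouse as a block 7 were lower, where 22.7% of all genes were. Others moved little or the other way: *Foxo1* (0.27), *Klf2* (0.21) and *S1pr1* (0.17) had positive differences, and *Tcf7* was at -0.13. None of these was called (limma adjusted p = 0.317, 0.553, 0.599 and 0.634, in that order), and all were named after their values were seen. No GIMAP member had a difference as large as that of any of the 5 called genes in the limma fit without the block. Of 13 interferon-inducible GTPases, another GTPase family of immune cells, 1 was higher (*Gbp7*, 0.26, adjusted p = 0.0477) and 1 was lower (*Tgtp1*, -0.76, adjusted p = 0.0273), with a median of -0.07. The largest difference after it was that of *Iigp1*, at -0.61 (adjusted p = 0.0807), followed by *Gbp3* at 0.46 (adjusted p = 0.0985). With the mouse as a block these were called as well (adjusted p = 0.00849 and 0.0325), which made 2 higher and 2 lower. In that fit 22.2% of all genes were higher and 22.7% lower. *Gbp7* was named after its values were seen.

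The genes most like the family in their pattern over the 8 libraries were *Grap2*, *Galnt6*, *Epsti1*, *Abcg1*, *Pym1*, *Cd96*, *Ablim1*, *Ifi47*, *Il21r* and *Zdhhc8*. The measure was Pearson's r of log2(FPKM + 1) with the mean of the 8 standardised members, and it ran from 0.994 for *Grap2*, an adaptor of T-cell receptor signalling, to 0.984 for *Zdhhc8*. The low T-cell markers of flow-through library 1 enter every such value, and without that library the same r was 0.864 to 0.968. Once each fraction's mean was subtracted, the 5 highest were *Pym1*, *Mical1*, *Cd160*, *Itgal* and *Tbxa2r*, with r of 0.996 to 0.998 over the 8 libraries and 0.935 to 0.965 without flow-through library 1. These values describe likeness and carry no test.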

How the data were processed

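RNA from the 2 column fractions of 4 mice was sequenced as stranded mRNA libraries (150 bp paired-end reads). The authors mapped reads to mm10 with TopHat and obtained gene FPKM (fragments per kilobase of transcript, scaled to the mapped total) with Cufflinks 2.1.1, with multi-read and fragment-bias correction, which they deposited as 1 table. The annotation release and strand setting are not given in the sources used here. FPKM gave no read depth, so no counting interval was computed.

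Genes averaging 1 FPKM or more (12166 of 47493) were fitted as log2(FPKM + 1) with limma 3.58.1 (R 4.3.3, eBayes with trend, no block), with Benjamini-Hochberg adjustment over all of them and a threshold of 0.05. Fold changes on this scale understate changes of low genes. The script was tested on simulated data. Mice were checked as pairs, because the labels' protocol says that cells of each mouse were split into both fractions. The labels number the fractions without naming mice, so libraries with the same number were taken as 1 mouse. Their deviations from the fraction means correlated at 0.66, 0.59, 0.31 and 0.47 for mice 1 to 4. Libraries with unlike numbers correlated at -0.60 to 0.41. Every library correlated most with the one of its own number. Flow-through 2 with enriched 4, at 0.41, was still above the value of mouse 3, so the pairing remains inferred. The fit with the mouse as a block is given beside a result where it changed the call. Ratios of 2 members were compared by exact two-sided permutation of the 8 libraries (Python 3.11.15), adjusted over 28 pairs. T-cell scaling divided a library by the relative geometric mean of 8 genes of the T-cell receptor complex, CD8 and their kinases. Alignments used Biopython 1.88, and RefSeq and GENCODE M21 gave sequences and positions.

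All members were named. From each companion list the 3 largest absolute differences, *Bcl2* and *Il7r* were named, with exceptions stated in the text. The members and lists were chosen with earlier results of these data known. Leaving out mouse 1, and T-cell scaling with the block, were added after seeing the data.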

Additional observations from a re-analysis of the deposited data

Results flagged for a closer look

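Dixon's test (95% limit) set 1 library apart in 3 of 76 groups of 4 libraries. Chance alone would do so in about 1 of 20, or 3.8 of 76. Each concerned a log2 ratio in the enriched fraction. The ratio of *Gimap1* to *Gimap7* was 1.57 in enriched library 3 against 1.83 to 1.84 in the others, and still above the flow-through, where it was at most 1.21. The ratio of *Gimap4* to *Gimap8* was 2.52 in enriched library 1 against 2.23 to 2.27. The ratio of *Gimap4* to *Gimap9* was 2.41 in the same library against 2.20 to 2.21.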

How the results depend on the processing

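With the mouse as a replicate block the GIMAP count stayed at 1 higher and 0 lower. The call of *Gimap1* (0.52, adjusted p = 0.0496) was lost, which left 0 members higher, with a pseudocount of 0.1 (adjusted p = 0.0503), with no filter on level (0.0889), with a filter at 5 FPKM (0.0502), without the limma trend (0.0554) and with T-cell scaling, alone or with the block. Leaving out a single library gave 0 to 1 members higher and 0 to 3 lower, and a log2 difference of 0.34 to 0.61 for *Gimap1*. Members called lower were 2 with T-cell scaling, 1 with T-cell scaling and the block, and 1 without mouse 1. With T-cell scaling, alone or with the block, 4 members changed sign, *Gimap4* to -0.082, *Gimap5* to -0.22, *Gimap8* to -0.29 and *Gimap9* to -0.21. Without mouse 1 *Gimap5* was at -0.033, *Gimap8* at -0.14 and *Gimap9* at -0.058. Leaving out a single library gave -0.076 to 0.24 for *Gimap5*, -0.19 to 0.15 for *Gimap8* and -0.090 to 0.25 for *Gimap9*, negative without flow-through library 1. The count of ratio pairs without overlap was also 17 with a pseudocount in the ratio. When the libraries were paired, 20 pairs moved the same way in every mouse, a count with no share over all pairs of genes beside it. Leaving out a library cannot lower the first count (17 to 19), and with 3 libraries against 4 no pair can go below an exact permutation p of 0.0571.

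Locus neighbours called higher were 2 with the block, with median-ratio scaling, without mouse 1 and with T-cell scaling and the block, 0 with no filter and with T-cell scaling, and 0 to 2 with a single library left out. Survival genes called higher were 1 with T-cell scaling and the block, and those lower were 2 with the block, 1 with T-cell scaling with or without the block, 1 without mouse 1 and 0 to 1 with a library left out. Naive genes called lower were 3 with no filter, 8 with T-cell scaling, 7 with the block, with median-ratio scaling, without mouse 1 and with T-cell scaling and the block, and 3 to 8 with a library left out. Genes of the autophagy and lysosome list called higher were 0 with T-cell scaling, with or without the block, and 1 to 3 with a library left out. Interferon-inducible GTPases called higher were 2 with the block, 0 with no filter, without trend and with T-cell scaling with or without the block, and 0 to 1 with a library left out. Those called lower were 2 with the block with or without T-cell scaling, 0 with no filter, 3 with T-cell scaling, 4 without mouse 1 and 0 to 5 with a library left out. Over all genes the calls went from 1720 higher and 1664 lower to 2705 and 2763 with the block 542 and 1085 with T-cell scaling, 636 and 2280 with both, and 1107 to 1813 and 939 to 1780 with a library left out. The cause of these shifts was not tested.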
